A study of Mus musculus with 20 samples.

Results

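Late neutrophil granule and S100 genes were followed in sorted bone marrow progenitors of mice with targeted deletion of Bcor, Dnmt3a or both genes. The group holds 10 of the 24315 genes in each expression table, namely S100a8, S100a9, Ltf, Camp, Ngp, Lcn2, Chil3, Mmp8, Mmp9 and Cd177. It was selected on measured values, the higher FPKM of S100a8 and Chil3 in megakaryocyte-erythroid progenitors of double knockout mice, so the comparison of those libraries with WT is given below as a description without a test. All 10 genes were found in both tables and passed the minimum mean of 1 FPKM, a transcript level scaled to transcript length and library size. In the MEP table only 8 of the 10 would have reached that minimum without the double knockout libraries, Mmp8 and Mmp9 being the exceptions.

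A neutrophil is built in stages. Promyelocytes fill the primary granules with myeloperoxidase and serine proteases, later myelocytes switch to secondary granules with lactoferrin, cathelicidin and lipocalin, and maturing cells add gelatinase granules and large amounts of the calcium-binding S100A8 and S100A9 proteins. Neither the stem cell gate nor the megakaryocyte-erythroid gate is meant to hold cells that have entered this late program.

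RNA was measured by poly-A RNA-seq in LSK cells (Lin-Sca1+Kit+, the gate of stem and early multipotent cells) and in MEP (Lin-Sca1-Kit+CD34-, with low or no FcγRII/III) sorted from the bone marrow of C57BL/6 mice. Each cell type had 10 libraries, 3 WT, 3 Dnmt3a-/-, 2 Bcor-/- and 2 Bcor-/-Dnmt3a-/-. Targeted alleles were deleted by Mx1-Cre after pIpC, an inducible system that acts in blood cells and beyond, and WT mice carried untargeted genes. The study reports that Dnmt3a was only partly deleted in its Dnmt3a-/- mice and fully lost only in leukemic double knockout mice. The label of Bcor-/- replicate 1 names 2 mice, the LSK and MEP libraries of one number and genotype come from the same mouse or mice, and the labels give no age. The text of the study calls the double knockout mice of its RNA-seq comparison leukemic.

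The region before the start site is shown for the genes named in the rule of choice, S100a8 and Chil3, for the partner of S100a8 and for Camp and Ngp, whose ratio differed between genotypes. RefSeq entries for GRCm38.p6 were found for 9 of the 10 genes. No entry was used for Mmp9. Each sequence holds the 250 bases before the annotated start, written 5′ to 3′ in the direction of the gene, and capitals mark 2 short motifs searched on both strands, the C/EBP-type TTGCNNAA and the TATA box TATAAA. The S100a8 window is chr3:90668821-90669070 (+ strand) and that of S100a9 is chr3:90695722-90695971 (- strand), and these genes are direct neighbours. The Chil3 window is chr3:106167565-106167814 (- strand), the Camp window chr9:109849457-109849706 (- strand) and the Ngp window chr9:110419558-110419807 (+ strand).
S100a8: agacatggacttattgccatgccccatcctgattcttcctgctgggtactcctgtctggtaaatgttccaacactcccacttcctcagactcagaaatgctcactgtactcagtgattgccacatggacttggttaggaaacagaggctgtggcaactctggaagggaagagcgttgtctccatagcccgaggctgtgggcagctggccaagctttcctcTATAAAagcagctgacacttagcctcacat
S100a9: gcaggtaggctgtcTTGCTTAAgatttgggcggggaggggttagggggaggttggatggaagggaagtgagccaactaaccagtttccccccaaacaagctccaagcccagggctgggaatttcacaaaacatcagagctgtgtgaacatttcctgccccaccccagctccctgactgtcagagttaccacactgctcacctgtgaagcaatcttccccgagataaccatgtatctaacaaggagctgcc
Chil3: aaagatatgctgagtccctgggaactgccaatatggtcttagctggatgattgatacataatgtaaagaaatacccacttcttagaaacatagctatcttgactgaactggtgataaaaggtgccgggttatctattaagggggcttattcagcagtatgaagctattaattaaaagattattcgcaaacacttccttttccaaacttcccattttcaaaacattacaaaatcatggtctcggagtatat
Camp: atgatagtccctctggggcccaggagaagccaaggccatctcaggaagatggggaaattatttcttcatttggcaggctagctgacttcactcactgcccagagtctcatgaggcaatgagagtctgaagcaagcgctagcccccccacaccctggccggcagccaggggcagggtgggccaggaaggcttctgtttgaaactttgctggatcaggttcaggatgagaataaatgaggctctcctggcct
Ngp: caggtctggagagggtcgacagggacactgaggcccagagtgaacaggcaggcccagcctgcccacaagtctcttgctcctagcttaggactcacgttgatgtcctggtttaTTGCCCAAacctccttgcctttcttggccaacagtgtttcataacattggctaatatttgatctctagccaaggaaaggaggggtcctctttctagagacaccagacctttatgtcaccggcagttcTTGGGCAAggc

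S100a8 held a TATA box that began 30 bases before its start, and S100a9 held a C/EBP-type match 236 bases before its start. Ngp held 2 C/EBP-type matches, at 138 and 11 bases before the start, while the windows of Camp and Chil3 held neither motif. Over the group the C/EBP-type motif was present in 5 of 9 windows (S100a9, Ltf, Ngp, Lcn2 and Mmp8), against 9.56% of all 32851 RefSeq windows of that length. TATAAA was present in 2 of 9 (S100a8 and Cd177), against 12.4% of all windows. The GATA-type motif AGATAA, likewise read on both strands, was found in 3 of 9 (S100a9, Ltf and Chil3), against 9.99%, and the ETS-type GAGGAA in 5 of 9, against 23.3%. A match of letters is a description of the sequence, and binding was not measured.

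Some libraries stood apart or carried RNA of other cell types, and those facts touch the results below. Depth per library is not given in the tables. The commonest ratio between low values of the same gene placed the libraries at 0.785 to 1.61 times the depth of WT replicate 1 of the same cell type. Markers of the LSK gate summed to between 1096 and 1271 FPKM in WT LSK but to 181 and 369 FPKM in the 2 double knockout LSK libraries. In Bcor-/- LSK they summed to 827 and 559.5 FPKM, below every WT library. Erythroblast markers summed to 6054 and 23620 FPKM in double knockout LSK against 35.9 to 121 FPKM in WT LSK. In MEP the MEP markers summed to 551 to 624 FPKM in WT and to 240 and 610 FPKM in double knockout replicates 1 and 2, with erythroblast markers at 3944 and 94570 FPKM against 384 to 904 FPKM in WT. The sum of replicate 2 includes the globin gene Hbb-b1 at a listed 0, although it was at 12340 FPKM in LSK of the same mouse. B-lymphoid markers were high in the double knockout of both cell types, at 2233 and 1208 FPKM against 38.5 to 80.5 FPKM in WT LSK and at 1733 and 135.5 FPKM against 19.7 to 103 FPKM in WT MEP. The level of the deleted genes checks the labels only weakly, since the gene values could also cover exons that remain, which was not tested. The study reports that Bcor mRNA could not be detected by reverse transcription and PCR in LSK of its Bcor-/- mice. Dnmt3a was at 10.35 and 10.9 FPKM in double knockout LSK against 16.1 to 19.9 FPKM in WT, and at 6.85 and 3.44 FPKM in double knockout MEP against 5.49 to 6.64 FPKM. Bcor was at 24.0 and 37.5 FPKM in double knockout LSK against 29.6 to 32.4 FPKM in WT, and at 19.6 and 26.7 FPKM in double knockout MEP against 21.4 to 26.9 FPKM. In Bcor-/- it was at 22.4 and 23.2 FPKM in LSK and at 19.5 and 22.4 FPKM in MEP. Bcor RNA was thus measured in Bcor-/- LSK, unlike in the study's PCR, and the reason was not tested.

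In MEP, every one of the 10 genes was higher in both double knockout libraries than in any of the 8 other libraries. S100a8 and S100a9, which pair to form calprotectin, were the most abundant. S100a8 was at 244, 120 and 186 FPKM in WT replicates 1, 2 and 3, at 213, 117 and 136 FPKM in Dnmt3a-/-, at 108 and 61.7 FPKM in Bcor-/-, and at 2988 and 6713 FPKM in double knockout MEP. S100a9 was at 222, 116 and 171 FPKM in WT, at 192, 109 and 110.1 FPKM in Dnmt3a-/-, at 118 and 57.2 FPKM in Bcor-/-, and at 2682 and 5302 FPKM in the double knockout. The lower double knockout library was thus 12.3 times the highest other library for S100a8 and 12.1 times for S100a9. By rank among all genes of the library, S100a8 was the 2nd and 3rd highest gene of double knockout replicates 1 and 2. The rank in double knockout replicate 2 takes Hbb-b1 at its listed 0 FPKM and may be too high. In WT MEP S100a8 ranked between the 241st and 770th.

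The genes of the secondary granules followed. Ltf, encoding the iron-binding lactoferrin, was at 10.4, 6.07 and 9.06 FPKM in WT MEP, at 10.4, 6.70 and 7.48 FPKM in Dnmt3a-/-, at 9.06 and 5.13 FPKM in Bcor-/-, and at 127 and 353 FPKM in the double knockout. Camp, the precursor of the antimicrobial peptide CRAMP, was at 36.4, 25.2 and 27.1 FPKM in WT, at 39.8, 12.8 and 17.5 FPKM in Dnmt3a-/-, at 22.0 and 18.6 FPKM in Bcor-/-, and at 384 and 1184 FPKM in the double knockout. Ngp, a granule protein of the cathelicidin and cystatin type, was at 31.9, 19.0 and 33.1 FPKM in WT, at 48.8, 22.0 and 21.7 FPKM in Dnmt3a-/-, at 25.5 and 18.1 FPKM in Bcor-/-, and at 444 and 1390.1 FPKM in the double knockout. For these 3 genes the WT, Dnmt3a-/- and Bcor-/- libraries overlapped, except that Camp was lower in both Bcor-/- libraries than in every WT library, and the double knockout libraries lay above them all.

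Lcn2, which binds bacterial siderophores, was at 13.95, 7.57 and 11.9 FPKM in WT MEP, at 14.5, 10.7 and 6.31 FPKM in Dnmt3a-/-, at 13.3 and 4.51 FPKM in Bcor-/-, and at 186 and 638 FPKM in the double knockout. Chil3, a chitinase-like lectin also called Ym1, was at 7.99, 4.82 and 6.23 FPKM in WT, at 7.08, 3.10 and 4.65 FPKM in Dnmt3a-/-, at 5.26 and 5.15 FPKM in Bcor-/-, and at 102 and 729 FPKM in the double knockout. Chil3 had the widest gap between the 2 double knockout mice, with replicate 2 at 7.13 times replicate 1. Reads of Chil3 could be shared with its close paralog and neighbour Chil4, and how they were assigned was not tested. Chil4 was listed at 0 in every MEP library except double knockout replicate 2, where it was at 0.140 FPKM.

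The collagenase gene Mmp8, the gelatinase gene Mmp9 and Cd177, which encodes a surface protein of neutrophils, were low in all MEP outside the double knockout. Mmp8 was at 0.813, 0.941 and 1.09 FPKM in WT, at 0.372, 1.19 and 0.409 FPKM in Dnmt3a-/-, at 0.252 and 0.224 FPKM in Bcor-/-, and at 21.9 and 32.5 FPKM in the double knockout. Mmp9 was at 0.961, 0.953 and 0.927 FPKM in WT, at 1.19, 0.805 and 0.747 FPKM in Dnmt3a-/-, at 0.192 and 0.0852 FPKM in Bcor-/-, and at 17.1 and 34.2 FPKM in the double knockout. Cd177 was at 1.46, 0.957 and 1.96 FPKM in WT, at 1.67, 1.07 and 1.18 FPKM in Dnmt3a-/-, at 0.962 and 0.654 FPKM in Bcor-/-, and at 21.6 and 66.0 FPKM in the double knockout. Both Bcor-/- libraries lay below every WT library for Mmp8 and Mmp9.

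**Figure D1:**
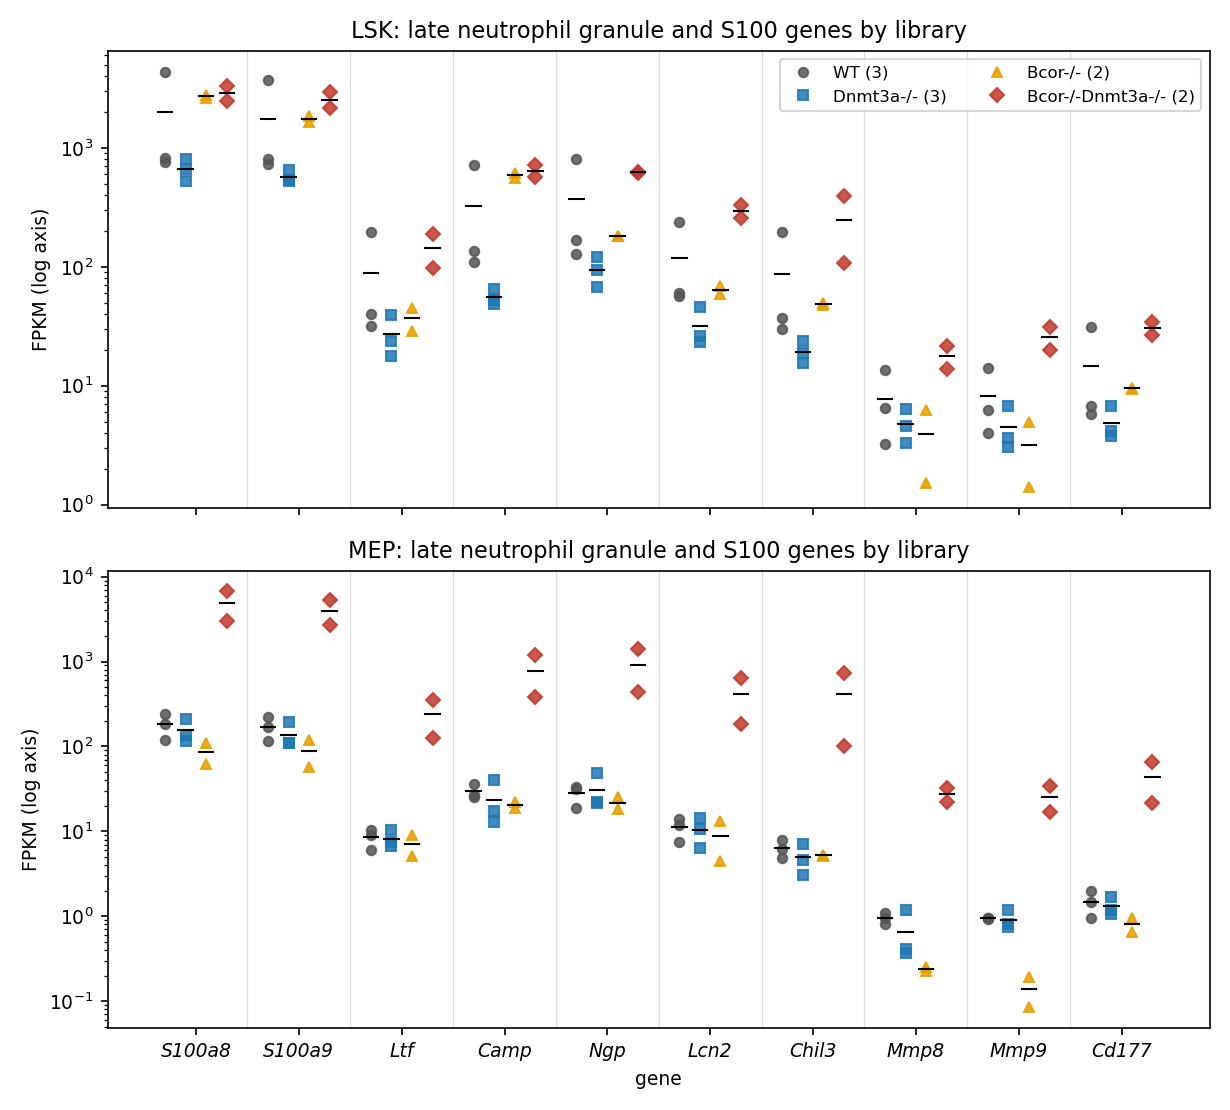
FPKM of the 10 genes in each library of LSK (top) and MEP (bottom), on a log axis, with 1 point per library, colours and shapes for the 4 genotypes, and a bar at the group mean. In MEP the 2 double knockout points of every gene lie above all 8 others, whereas in LSK 1 WT library lies among or above the double knockout points for most genes.

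As differences on the scale of log2(FPKM + 1), the 10 genes were 3.70 to 5.25 higher in double knockout than in WT MEP, with a median of 4.51, beside a median of 0.018 over all 10933 genes tested. Chil3 had the largest difference, 5.25 ± 0.68 (SE of the fit, 2 against 3 libraries), and Mmp9 the smallest, 3.70 ± 0.28. All 10 had both double knockout libraries above every WT library, as had 24.6% of all genes, and nothing is read from that count because the choice of genes used this contrast. As ratios of mean FPKM, which the pseudocount does not shrink, the genes were 23.5 (S100a9) to 65.5 (Chil3) times as high. Replicate 2 was above replicate 1 for 10 of 10 genes, by 1.48 (Mmp8) to 7.13 times (Chil3). All double knockout MEP values rest on 2 mice, and in bulk RNA a larger number of expressing cells and more RNA per cell cannot be told apart.

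Markers of other cell types moved with this rise. All 7 measured neutrophil markers outside the group were above every WT library in both double knockout MEP libraries, with sums of 302 and 468 FPKM against 15.9 to 23.5 FPKM in WT. That count is a description, since the genes were chosen on this contrast, and 24.6% of all genes tested did the same. Monocyte markers summed to 157.5 and 284 FPKM against 17.5 to 43.8 FPKM, with 5 of 6 above WT. Macrophage markers summed to 848 FPKM in replicate 1 but 27.5 FPKM in replicate 2, against 6.74 to 10.5 FPKM in WT. Granulocyte-macrophage progenitor markers summed to 239 and 376 FPKM, against 28.9 to 245 FPKM in WT. Only 1 of these 6 markers lay above every WT library in both. This was Fcgr3, which encodes FcγRIII, at 63.9 and 27.85 FPKM against 1.21 to 4.54 FPKM in WT. Eosinophil markers summed to 116 and 34.4 FPKM against 2.09 to 5.32 FPKM. T and NK cell markers summed to 110.5 and 174 FPKM against 38.8 to 71.5 FPKM, with 5 of 6 measured above every WT library. Nkg7, also in the primary granule list below, gave 48.85 and 97.4 FPKM of these sums, against 26.8 to 64.2 FPKM in WT. Megakaryocyte and platelet markers went the other way, at 19.6 and 72.7 FPKM against 89.1 to 337 FPKM in WT. The part of such cells in the values was not tested.

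The LSK libraries gave another picture, in that 1 WT library, replicate 2, lay above both double knockout libraries for 5 of the 10 genes. S100a8 was at 824, 4389 and 760 FPKM in WT replicates 1, 2 and 3, at 522, 814 and 665 FPKM in Dnmt3a-/-, at 2796 and 2648 FPKM in Bcor-/-, and at 3340 and 2493 FPKM in double knockout LSK. S100a9 was at 801, 3736 and 735 FPKM in WT, at 535, 652 and 527 FPKM in Dnmt3a-/-, at 1871 and 1647 FPKM in Bcor-/-, and at 2950.5 and 2153 FPKM in the double knockout. Both genes were therefore abundant in Bcor-/- and double knockout LSK as well as in WT replicate 2, and lower in the 5 remaining libraries.

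Ltf was at 40.0, 195 and 31.6 FPKM in WT LSK, at 39.5, 24.0 and 17.8 FPKM in Dnmt3a-/-, at 45.3 and 28.7 FPKM in Bcor-/-, and at 189 and 98.3 FPKM in the double knockout. Camp was at 136, 723 and 110.1 FPKM in WT, at 65.0, 52.7 and 48.5 FPKM in Dnmt3a-/-, at 558 and 619 FPKM in Bcor-/-, and at 566 and 715 FPKM in the double knockout. Ngp was at 169, 814 and 128 FPKM in WT, at 122, 94.8 and 67.7 FPKM in Dnmt3a-/-, at 180.0 and 182 FPKM in Bcor-/-, and at 631 and 617 FPKM in the double knockout. Camp in Bcor-/- was near its double knockout level, while Ltf and Ngp in Bcor-/- were near WT replicates 1 and 3.

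Lcn2 was at 60.5, 237 and 57.1 FPKM in WT LSK, at 45.7, 26.0 and 23.1 FPKM in Dnmt3a-/-, at 68.7 and 59.0 FPKM in Bcor-/-, and at 331 and 257 FPKM in the double knockout. Chil3 was at 37.3, 195 and 29.9 FPKM in WT, at 23.6, 18.9 and 15.4 FPKM in Dnmt3a-/-, at 49.5 and 48.0 FPKM in Bcor-/-, and at 107 and 390.4 FPKM in the double knockout. The 2 double knockout mice again differed most in Chil3, and again replicate 2 was the higher.

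Mmp8 was at 3.26, 13.6 and 6.47 FPKM in WT LSK, at 6.39, 4.62 and 3.28 FPKM in Dnmt3a-/-, at 6.31 and 1.53 FPKM in Bcor-/-, and at 21.5 and 13.8 FPKM in the double knockout. Mmp9 was at 4.005, 14.1 and 6.28 FPKM in WT, at 6.76, 3.64 and 3.05 FPKM in Dnmt3a-/-, at 4.96 and 1.40 FPKM in Bcor-/-, and at 31.5 and 19.8 FPKM in the double knockout. Cd177 was at 6.76, 31.4 and 5.80 FPKM in WT, at 6.75, 3.78 and 4.12 FPKM in Dnmt3a-/-, at 9.65 and 9.36 FPKM in Bcor-/-, and at 34.4 and 26.6 FPKM in the double knockout. Mmp9 and Mmp8 were lowest in Bcor-/- replicate 2.

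WT replicate 2 was the highest WT LSK library for 10 of 10 genes, and the highest of all 8 libraries outside the double knockout for the same 10. It exceeded the mean of the other WT libraries by 2.75 (Mmp9) to 5.87 times (Camp), and 8 of the 10 genes were at least 4 times higher, among 156 of 11952 tested genes that were. Marker sums of several myeloid cell types were also the highest of WT LSK there, and their part in the values was not tested. Neutrophil markers outside the group summed to 368 FPKM there against 178 and 172 FPKM in replicates 1 and 3, monocyte markers to 455 against 175 and 247 FPKM, macrophage markers to 345 against 149 and 57.0 FPKM, and granulocyte-macrophage progenitor markers to 3640 against 1581 and 1810.0 FPKM. The MEP library of the same mouse did not stand high, being the lowest WT MEP library for 8 of 10 genes. The LSK comparisons of the 10 genes with WT are therefore given with and without this library, and for the gene lists further below the counts without it are added.

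Double knockout LSK were compared with WT in limma's fit over all genes, where a gene was called at an unadjusted p below 0.05 and a fold above 1.5. Differences were positive for all 10 genes, with a median of 1.32 on the log2(FPKM + 1) scale against 0.019 over all 11952 genes. Camp, Lcn2, Chil3, Mmp9 and Cd177 were called higher, 5 of 10, beside 15.0% of all genes tested. Mmp9 differed by 1.67 ± 0.53 (SE, adjusted p = 0.042) and was the one gene of the group with an adjusted p below 0.05. Lcn2 differed by 1.63 ± 0.55 (adjusted p = 0.055), Chil3 by 1.74 ± 0.76 (adjusted p = 0.12), Camp by 1.52 ± 0.65 (adjusted p = 0.11) and Cd177 by 1.39 ± 0.57 (adjusted p = 0.10). S100a8, by contrast, differed by 1.04 ± 0.65 (adjusted p = 0.26) and was not called. Both double knockout libraries lay above every WT library for Lcn2, Mmp8 and Mmp9, 3 of 10, against 25.5% of all genes. In these 2 libraries macrophage markers summed to 1598 and 109.7 FPKM, against 57.0 to 345 FPKM in WT LSK, monocyte markers to 289 and 849 FPKM, against 175 to 455 FPKM, eosinophil markers to 207 and 990.4 FPKM, against 248 to 306 FPKM, and neutrophil markers outside the group to 366 and 381 FPKM, against 172 to 368 FPKM. Megakaryocyte and platelet markers were lower, at 15.1 and 51.6 FPKM against 99.8 to 119 FPKM. The part of these cell types and that of the B-lymphoid and erythroblast RNA given above was not tested.

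Without WT replicate 2, 10 of 10 genes were called higher in double knockout LSK, beside 14.7% of all genes. The difference of S100a8 was then 1.86 ± 0.24 (adjusted p = 0.0016), that of Camp 2.37 ± 0.19 (adjusted p = 0.00028) and that of Chil3 2.58 ± 0.50 (adjusted p = 0.0089). Mmp8 had the weakest call, 1.70 ± 0.52 (adjusted p = 0.051). With all 3 WT libraries kept and 1 variance allowed per genotype, 0 of 10 were called in limma and 0 had an unadjusted p below 0.05. Other libraries mattered too, with 1 of 10 called without WT replicate 1, WT replicate 3 or double knockout replicate 1, 2 without double knockout replicate 2 or any 1 of the Dnmt3a-/- libraries, and 3 without either Bcor-/- library.

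Loss of Bcor alone in LSK gave 0 called genes of 10 in limma, and 0 with an unadjusted p below 0.05, beside 7.20% of all genes called higher and 6.03% called lower. Camp differed by 1.40 ± 0.65 (adjusted p = 0.22), S100a8 by 0.96 ± 0.65 (adjusted p = 0.40) and Mmp9 by -1.12 ± 0.53 (adjusted p = 0.23). Without WT replicate 2, 3 of 10 were called higher, beside 7.87% of all genes. These were Camp, with 2.25 ± 0.19 (adjusted p = 0.011), S100a8, with 1.78 ± 0.24 (adjusted p = 0.015), and S100a9, with 1.19 ± 0.21 (adjusted p = 0.029). Ltf, with 0.02 ± 0.42 (adjusted p = 0.99), and Lcn2, with 0.11 ± 0.29 (adjusted p = 0.87), were then close to WT replicates 1 and 3. Without WT replicate 1 or Bcor-/- replicate 1, 2 of 10 were called lower instead. Where leaving out a library left 1 in a group, here and in the other comparisons, that library was assumed to vary like the other genotypes. Granulocyte-macrophage progenitor markers summed to 13000 and 21360 FPKM in Bcor-/- LSK and monocyte markers to 866 and 1150.0 FPKM. Most of the former (Mpo, Elane, Prtn3, Ctsg and Ms4a3) are primary granule genes, which are counted again below. Markers of the LSK gate were lower in Bcor-/- LSK, at 827 and 559.5 FPKM against 1096 to 1271 FPKM in WT LSK. Neutrophil markers outside the group summed to 451 and 592 FPKM there, with 3 of the 7 measured above every WT library, against 27.1% of all genes tested, while Retnlg, at 27.1 and 11.3 FPKM, and Cxcr2, at 1.42 and 1.62 FPKM, were below every WT library. The part of such cells in these values was not tested.

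In Dnmt3a-/- LSK the differences from WT had a median of -1.23 over the 10 genes against 0.0027 over all genes. Dnmt3a RNA of replicate 1 was inside the range of WT there, and the degree of Dnmt3a loss in these libraries was not tested. Camp, Ngp, Lcn2 and Chil3 were called lower, 4 of 10, beside 0.234% of all genes tested. Camp differed by -1.99 ± 0.58, Ngp by -1.49 ± 0.58, Lcn2 by -1.60 ± 0.50 and Chil3 by -1.61 ± 0.68. Their adjusted p was 1.0 each, and no gene of the table passed at the adjusted p. All 3 Dnmt3a-/- libraries lay below every WT library for 5 genes, these 4 and S100a9, against 4.98% of all genes. Without WT replicate 2 the difference of Camp was -1.14 ± 0.18 (adjusted p = 1.0) and that of Chil3 -0.78 ± 0.46 (adjusted p = 1.0), with 3 of 10 called. The count was 7 without WT replicate 1, 8 without WT replicate 3, and 2 without Dnmt3a-/- replicate 2 or replicate 3.

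**Figure D2:**
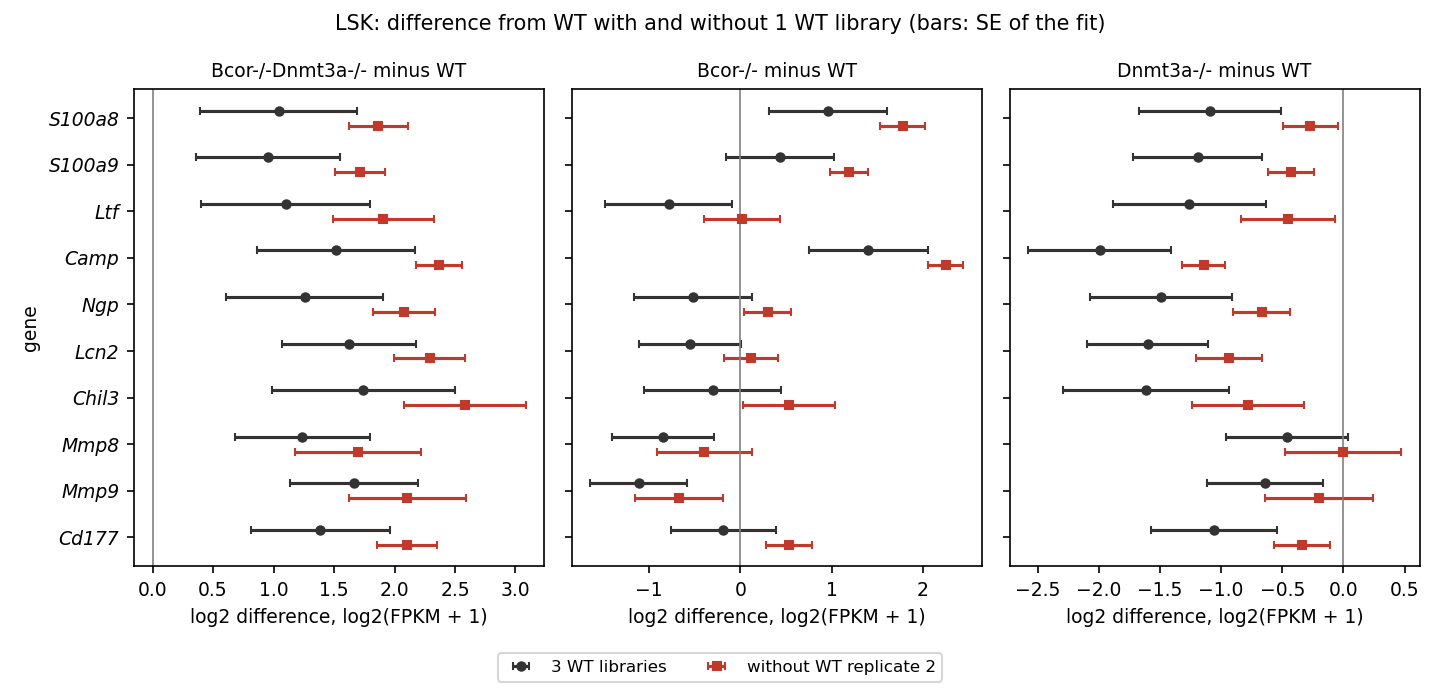
Difference of each gene from WT in LSK on the log2(FPKM + 1) scale, for the double knockout (left), Bcor-/- (middle) and Dnmt3a-/- (right), with the standard error of limma's fit as bars, using all 3 WT libraries (circles) or leaving out WT replicate 2 (squares). Leaving it out moved every point to the right and shortened most bars, so that S100a8 in the double knockout went from 1.04 to 1.86.

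The double knockout was also compared with each single knockout, where WT does not enter the difference but shares the estimate of the spread. Against Dnmt3a-/- LSK, all 10 genes were called higher in double knockout LSK, beside 15.9% of all genes, and all 10 also had an adjusted p below 0.05. Differences ran from 1.70 ± 0.56 for Mmp8 (adjusted p = 0.046) to 3.51 ± 0.65 for Camp (adjusted p = 0.0038), with 3.36 ± 0.76 for Chil3 (adjusted p = 0.0095) and 2.13 ± 0.65 for S100a8 (adjusted p = 0.034). With 1 variance per genotype, 3 of the 10 remained past the threshold. The standard error of S100a8 fell from 0.65 to 0.22 without WT replicate 2, and all 10 were called.

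Against Bcor-/- LSK, 7 of 10 genes were called higher in the double knockout, beside 15.8% of all genes, and 8 of 10 had both double knockout libraries above both Bcor-/- libraries, against 28.1% of all genes. The difference was largest for Mmp9, 2.78 ± 0.58 (adjusted p = 0.0077), followed by Lcn2, 2.18 ± 0.61 (adjusted p = 0.026), and Mmp8, 2.09 ± 0.61 (adjusted p = 0.032). Ltf, Ngp, Chil3 and Cd177 were called with adjusted p values of 0.089 to 0.093. The differences were the same without WT replicate 2 but the spread was smaller, and the adjusted p in limma was 0.015 for Ltf, 0.0029 for Ngp, 0.022 for Chil3 and 0.0041 for Cd177. S100a8 differed by 0.08 ± 0.71 (adjusted p = 0.94), S100a9 by 0.52 ± 0.65 (adjusted p = 0.57) and Camp by 0.11 ± 0.72 (adjusted p = 0.92). The sign for S100a8 turned without double knockout replicate 1 and under median centring, and that for Camp without double knockout replicate 2 and under quantile normalization, so no direction is given for these genes. The count of 7 became 3 and 2 without Bcor-/- replicates 1 and 2, 4 without either double knockout library, and 1 with 1 variance per genotype.

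In MEP no gene of the group was called higher in a single knockout. These comparisons share the 3 WT libraries with the contrast that chose the genes. Against WT, Bcor-/- MEP gave 3 of 10 genes called lower, beside 1.53% of all genes called lower and 1.23% called higher. Of these only S100a8 would have been tested without the double knockout libraries, through which Mmp8 and Mmp9 reached the minimum mean, so the count is a description. S100a8 differed by -1.10 ± 0.44 (adjusted p = 0.83), Mmp9 by -0.78 ± 0.28 (adjusted p = 0.72) and Mmp8 by -0.65 ± 0.27 (adjusted p = 0.86), and the values of Mmp8 and Mmp9 were under 2 FPKM in all libraries compared. Differences were negative for 10 of 10 genes, with a median of -0.47. Both Bcor-/- libraries lay below every WT library for S100a8, Camp, Mmp8 and Mmp9, 4 of 10, against 16.1% of all genes, which for the same reason is a description. Granulocyte-macrophage progenitor markers summed to 570.1 and 335 FPKM in these libraries, against 28.9 to 245 FPKM in WT MEP, and their part was not tested. Without WT replicate 1 or without Bcor-/- replicate 2, 0 of 10 were called and 0 had an unadjusted p below 0.05 in limma, and without WT replicate 3, 1 was called. Dnmt3a-/- MEP gave 0 of 10 called in limma, and 0 with an unadjusted p below 0.05, beside 0.201% of all genes called higher and 0.210% called lower, and the differences ran from -0.46 (Camp) to 0.07 (Ngp). Granulocyte-macrophage progenitor markers summed to 599, 139 and 315.5 FPKM in Dnmt3a-/- MEP, and their part was not tested there either.

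Levels of the 2 cell types were read side by side only, since the tables were made separately. In WT, the mean of S100a8 was 1991 ± 2077 FPKM (SD, n = 3) in LSK and 183 ± 61.7 FPKM in MEP, and that of Chil3 was 87.3 ± 93.0 FPKM in LSK and 6.34 ± 1.59 FPKM in MEP. In the double knockout S100a8 was at 2916 ± 599 FPKM (SD, n = 2) in LSK and at 4850 ± 2634 FPKM in MEP, and Chil3 at 249 ± 200.4 FPKM in LSK and 416 ± 443 FPKM in MEP. Ngp was at 624 ± 9.79 FPKM in double knockout LSK and at 917 ± 669 FPKM in double knockout MEP.

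Within libraries some of the genes kept close to a constant ratio. S100a8 to S100a9 stayed between 0.916 and 1.61 in all 20 libraries, with a median of 1.11, although the level of S100a8 itself ran from 61.7 to 6713 FPKM. The 2 highest ratios were those of Bcor-/- LSK, 1.49 and 1.61, against 1.03, 1.17 and 1.03 in WT LSK. Ngp to Camp lay between 0.754 and 1.88 in 18 libraries, while the Bcor-/- LSK libraries were at 0.323 and 0.295, outside the range of all others. That followed from Camp being high in Bcor-/- LSK while Ngp was not. The same genotype in MEP had ratios of 1.16 and 0.974.

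**Figure D3:**
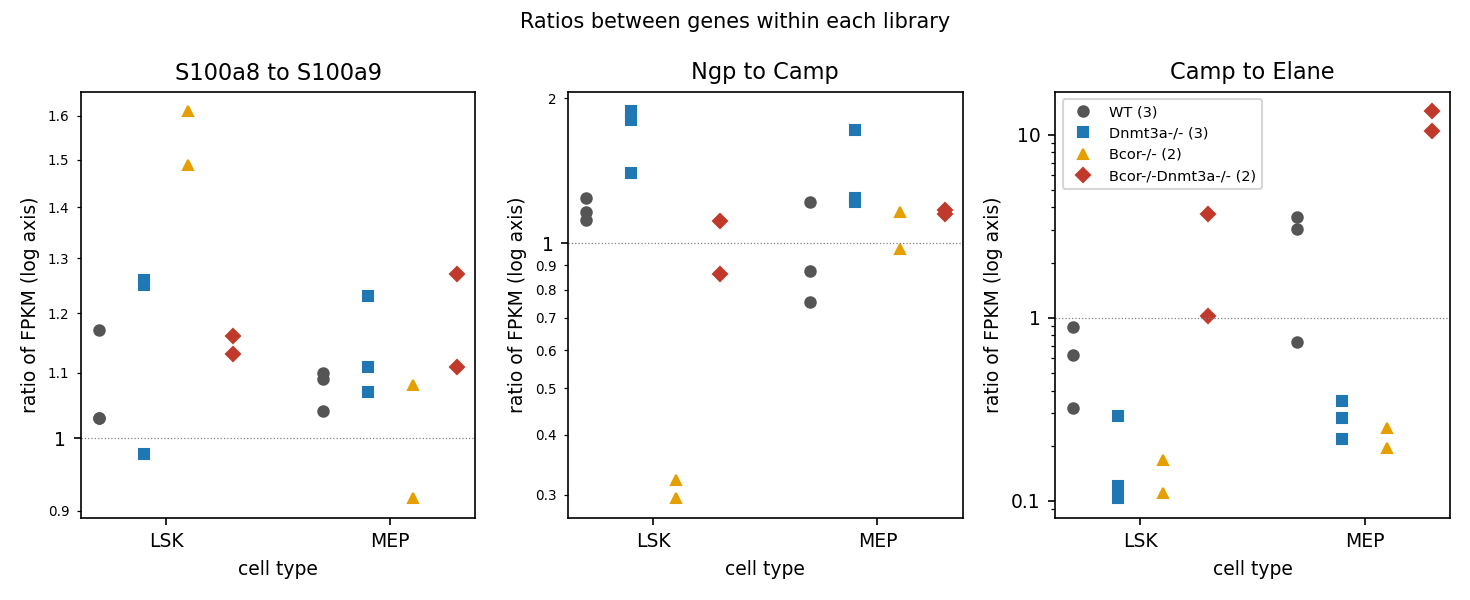
Ratio of FPKM between pairs of genes in each library (log axis), for S100a8 to S100a9 (left), Ngp to Camp (middle) and Camp to the primary granule gene Elane (right), with 1 point per library, by cell type and genotype. Ngp to Camp sets the 2 Bcor-/- LSK libraries, at 0.323 and 0.295, apart from the rest, and Camp to Elane is highest in double knockout MEP, at 10.5 and 13.4.

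Over the 10 LSK libraries the 45 pairs of genes had Pearson correlations of log2(FPKM + 1) from 0.434 (Camp and Mmp8) to 0.983 (Ngp and Cd177), with a median of 0.844. In MEP the range was 0.951 to 0.999 with a median of 0.985, which the 2 high double knockout libraries set. Leaving those out, the 8 remaining MEP libraries gave a range from -0.217 (Chil3 and Mmp8) to 0.982 (S100a8 and S100a9), with a median of 0.686. These values describe libraries that share genotypes and mice.

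Primary granule genes belong to the preceding stage. The list of 8 was Mpo, Elane, Prtn3, Ctsg, Prss57, Ms4a3, Calr and Nkg7. Calr and Nkg7 are not specific to primary granules, and Nkg7 was also counted among the T and NK cell markers. In Bcor-/- LSK, 8 of 8 were called higher than in WT, beside 7.20% of all genes, and 0 of the 10 late genes were. The counts were 8 of 8 primary and 3 of 10 late genes without WT replicate 2. Markers of the LSK gate were lower in both Bcor-/- LSK libraries than in any WT library, and the part of other cells was not tested. Elane, encoding neutrophil elastase, was at 217, 812 and 343 FPKM in WT LSK, at 3351 and 5593 FPKM in Bcor-/-, and at 154 and 703 FPKM in the double knockout. Its difference between Bcor-/- and WT was 3.46 ± 0.70 (adjusted p = 0.027), and those of Ms4a3, 3.34 ± 0.68 (adjusted p = 0.027), and Prtn3, 2.90 ± 0.53 (adjusted p = 0.021), were of like size. Against Bcor-/- LSK, double knockout LSK had 8 of 8 primary granule genes called lower, beside 14.8% of all genes called lower, with Mpo at -3.82 ± 0.62 (adjusted p = 0.0024), while 7 of the 10 late genes were called higher. In Bcor-/- MEP 4 of 8 were called higher than in WT, beside 1.23% of all genes, led by Elane, at 112.5 and 74.6 FPKM against 49.4, 7.08 and 8.86 FPKM (2.54 ± 0.83, adjusted p = 0.60). Dnmt3a-/- MEP had 2 of 8 called higher, beside 0.201% of all genes. The median difference was 1.86 in Bcor-/- MEP and 1.38 in Dnmt3a-/- MEP, with 8 and 7 of 8 positive. In double knockout MEP, Mpo, the myeloperoxidase gene, was at 55.1 and 121 FPKM against 96.1, 10.8 and 69.2 FPKM in WT. The 8 primary granule genes had a median difference of 1.15 there, with 7 of 8 positive, described without a test. Both double knockout libraries lay above every WT library for 0 of 8, against 24.6% of all genes, and below for 1.

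**Figure D4:**
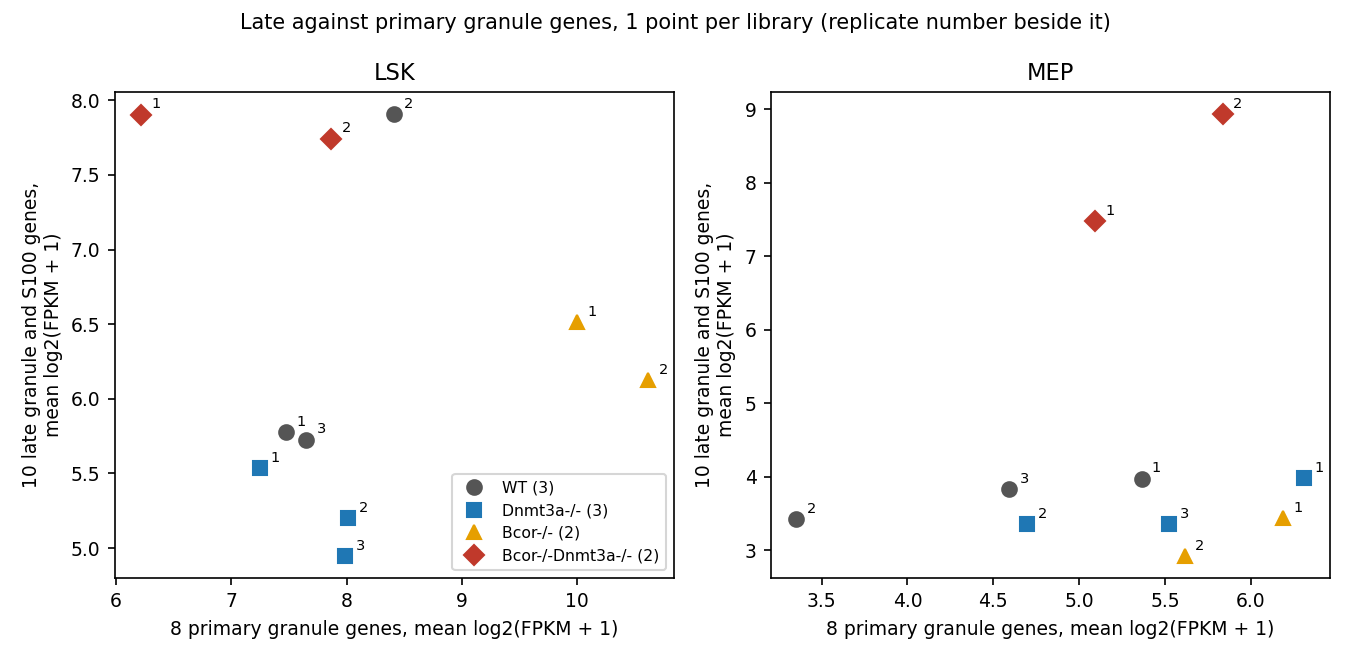
Mean log2(FPKM + 1) of the 10 late granule and S100 genes (vertical) against that of the 8 genes of the primary granule list (horizontal). Each point is 1 library with its replicate number, in LSK (left) and MEP (right). Bcor-/- LSK lie farthest to the right, replicate 2 at 10.6 for the primary genes, and double knockout MEP lie at the top, at 7.48 and 8.93 for the late genes, with primary means of 5.09 and 5.84 inside the range of the other libraries.

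Other late neutrophil genes, a list of 25 of which 19 were tested, gave 8 called higher and 2 called lower in double knockout against WT LSK, beside 15.0% and 13.3% of all genes, with a median of 1.25. Without WT replicate 2, 13 were called higher and 2 lower, beside 14.7% and 13.1%. Cybb, the NADPH oxidase heavy chain, differed by 2.60 ± 0.62 (adjusted p = 0.013), and Fpr1, a formyl peptide receptor, by 2.36 ± 0.78 (adjusted p = 0.05). Csf3r, the G-CSF receptor, fell by 2.05 on the log2 scale (SE 0.16, adjusted p = 6.2e-05), and Fpr2 differed by 1.85 ± 0.74 (adjusted p = 0.092). Both formyl peptide receptors were far higher in double knockout replicate 1 than in replicate 2, Fpr1 at 32.9 and 2.53 FPKM against at most 2.27 FPKM in WT, and Fpr2 at 26.5 and 3.98 FPKM against at most 6.78 FPKM. In Bcor-/- LSK 4 of the 19 were called higher and 3 lower, beside 7.20% and 6.03% of all genes, and 6 and 3 without WT replicate 2, beside 7.87% and 6.08%. The largest there were Hp, the haptoglobin gene, at 2.84 ± 0.56 (adjusted p = 0.025) and Trem3 at 2.79 ± 0.47 (adjusted p = 0.017). In Dnmt3a-/- LSK 0 of the 19 were called higher and 2 lower, Ifitm6 and Lyz2, beside 0.234% of all genes called lower. The median was -0.429, and without WT replicate 2 only Ifitm6 was called lower. In double knockout MEP, Retnlg was at 138 and 164 FPKM against 5.70, 9.53 and 7.81 FPKM in WT. Retnlg in Bcor-/- MEP was the one gene of the list called there, at 0.662 and 1.47 FPKM (-2.08 ± 0.25, adjusted p = 0.046). Ly6g was not analysed here. The neutrophil markers outside the group that were summed above all belong to this list.

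A list of 9 transcription factors of granulocytes and other blood cells gave 1 called higher in double knockout LSK, beside 15.0% of all genes. This was Irf8, also a factor of monocytes and B cells, with 1.67 ± 0.65 (adjusted p = 0.087). It was at 50.8 FPKM in replicate 1, inside the range of WT, and at 380.4 FPKM in replicate 2, so the call rested on 1 mouse. Without WT replicate 2, Cebpe was called as well, with 1.02 ± 0.39 (adjusted p = 0.10). In Bcor-/- LSK 4 were called higher, beside 7.20% of all genes, among them Cebpe, which drives secondary granule genes, with 3.10 ± 0.45 (adjusted p = 0.013), and Gfi1, with 1.97 ± 0.16 (adjusted p = 0.0045). Called lower was 1, Runx1, beside 6.03% of all genes, and it was not called without WT replicate 2. Cebpe was at 3.94, 11.6 and 5.23 FPKM in WT LSK, at 47.8 and 79.7 FPKM in Bcor-/- and at 6.35 and 16.2 FPKM in the double knockout. In MEP it was at 1.55, 0.403 and 0.276 FPKM in WT and at 2.51 and 12.1 FPKM in the double knockout. Over all 20 libraries Cebpe was highest in Bcor-/- LSK, where Camp was high and Ngp was not.

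Of 14 other S100 genes, 6 were tested in each cell type. In double knockout LSK 2 were called higher and 1 lower, beside 15.0% and 13.3% of all genes, and the same 3 without WT replicate 2. S100a6 was at 33.5, 47.1 and 40.0 FPKM in WT LSK and at 252 and 329 FPKM in the double knockout, a difference of 2.82 ± 0.25 (adjusted p = 9.5e-05), and S100a4 differed by 1.57 ± 0.31 (adjusted p = 0.0055). S100a1 fell by 1.11 on the log2 scale (SE 0.15, adjusted p = 0.00078). The WT LSK libraries lay closer together in S100a6 than in S100a8. In MEP S100a6 was at 6.05, 7.85 and 7.02 FPKM in WT and at 193 and 199 FPKM in the double knockout.

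Of the other chitinase family genes only Chil1 was tested, in LSK alone, and it was called in no comparison there. Chil1 was highest in WT replicate 2, at 7.91 FPKM, against 3.79 and 2.51 FPKM in the double knockout. Among 9 tested matrix metalloproteinases and inhibitors in LSK, 2 were called higher and 2 lower in the double knockout, beside 15.0% and 13.3% of all genes, with a median of -0.08, and the same 4 were called without WT replicate 2. The largest was Mmp13, with 2.53 ± 0.80, which was at 0.743 FPKM in replicate 1 and 19.2 FPKM in replicate 2 and so rested on 1 mouse. It was at most at 0.0873 FPKM in every library outside the double knockout. Mmp13 thus passed the minimum mean only through the double knockout, and its place among those called higher is a description. Mmp14, encoding a membrane-bound enzyme, differed by 1.38 ± 0.16 (adjusted p = 0.00035).

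Receptors and ligands of the encoded proteins were a list of 12 genes, all tested in LSK. Fpr2, Itgam and Itgb2 of this list are also among the late neutrophil genes above. In the double knockout 6 were called higher and 1 lower, beside 15.0% and 13.3% of all genes, with a median of 0.96, and 7 and 1 without WT replicate 2. Cd36 differed by 2.61 ± 0.51 (adjusted p = 0.005), Cd14 by 2.10 ± 0.38 (adjusted p = 0.0034) and Fpr2, also counted above, by 1.85 ± 0.74 (adjusted p = 0.092). Slc22a17, which encodes a receptor for lipocalin 2, fell by 1.72 on the log2 scale (SE 0.28, adjusted p = 0.0022) where Lcn2 itself was called higher. In MEP, Tlr4, a receptor for S100A8 and S100A9, was at 0.617, 0.195 and 0.478 FPKM in WT and at 10.4 and 2.54 FPKM in the double knockout, while Ager, encoding RAGE, was at 2.07, 2.002 and 1.14 FPKM in WT and at 1.61 and 2.31 FPKM in the double knockout.

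The genes with the pattern most like the group were found by the correlation over the 10 libraries with the mean of its standardised log2 values. In LSK these were Plbd1 (r = 0.956), Olfm4 (0.952), Itgb2l (0.951), Olfml2b (0.934), Orm1 (0.933), Ckb (0.928), Itpripl1 (0.920), Naaa (0.916), Id2 (0.902) and Bcl2a1d (0.898). Plbd1, a phospholipase-like protein, was at 11.9, 40.1 and 9.40 FPKM in WT, at 19.7 and 12.7 FPKM in Bcor-/- and at 69.6 and 31.3 FPKM in the double knockout, so WT replicate 2 stood out there too. Olfm4, a protein of a subset of secondary granules, was at 0.520, 4.16 and 1.16 FPKM in WT and at 6.57 and 4.12 FPKM in the double knockout.

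Among the most alike in MEP were Cybb (r = 0.995), Spp1 (0.990), Ms4a1 (0.989), Sesn1 (0.989), Fcmr (0.988), Btg1 (0.988), Gramd1b (0.988), Cxcr5 (0.988) and Stfa2l1 (0.987), all with double knockout replicate 2 above replicate 1. The 2 double knockout libraries, on which the genes of the group were chosen, set these correlations, and Ms4a1, Fcmr, Cxcr5 and Stfa2l1 were below 1 FPKM in the 8 other libraries and so passed the minimum mean only through them. Ms4a1, which encodes the B-cell antigen CD20, was listed at 0 in both WT replicates 1 and 2, was at 0.0778 FPKM in replicate 3, and reached 14.1 and 24.7 FPKM in the double knockout. Stfa2l1, a neutrophil stefin, was listed at 0 in all WT and Bcor-/- MEP and reached 8.01 and 24.7 FPKM.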

How the data were processed

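Transcript levels were deposited by the authors as FPKM, in separate tables for LSK and MEP, and the submitters' processing notes name STAR 2.5.1b, SAMtools 1.9, Cufflinks 2.2.1 and the mm9 build, without the annotation or the role of each tool. FPKM divides fragments by transcript length and library total, so the large globin share of double knockout libraries could lower their other values, which was not tested. A listed 0 may be a failed estimate. Depth is not stated, so no counting error was given.

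Values were analyzed as log2(FPKM + 1), keeping a gene where its 10 libraries averaged 1 FPKM or more. R 4.3.3 with limma 3.58.1 fitted 1 mean per genotype with a variance trend, and genes were called at an unadjusted p below 0.05 and a fold above 1.5, the thresholds of the study's methods, with Benjamini-Hochberg adjusted p values over all tested genes beside them. Within a cell type libraries are different mice, except that 1 label names 2 mice, and the same mice gave both cell types. The fit was first tested on simulated data. With 2 against 3 libraries an exact permutation test cannot go below p = 0.1, so none is given. Python 3.11.15 (matplotlib 3.10.9) made the figures and summaries. The promoter sequences come from RefSeq (GRCm38.p6), a build other than that of the tables, so no gene coordinates of the tables are printed.

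The genes, lists, markers and tests were chosen with earlier results of these data known. Named genes are the 10 of the group, up to 4 called genes of each list per comparison described by absolute log2 fold change, and the 10 genes per cell type most correlated with the group, of which 1 in MEP is not reported here. Other genes (Mpo, Retnlg and Cebpe in double knockout MEP, Tlr4, Ager, Chil1, Chil4, Runx1, Slc22a17, Cxcr2, Hbb-b1 and the deleted genes) were named after their values were seen. Alternatives were another pseudocount, other filters, quantile normalization, median centring, a fit of only the compared genotypes, a replicate block, no trend, 1 variance per genotype, the adjusted p, a larger fold and leaving out each library.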

Additional observations from a re-analysis of the deposited data

Results flagged for a closer look

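3 results were marked because the Bcor-/- libraries lay on opposite sides of WT in the 2 cell types. On the log2(FPKM + 1) scale every Bcor-/- library was above the mean of the WT log2 values in LSK and below it in MEP. The LSK difference exceeded the MEP difference by 2.05 for S100a8, by 1.91 for Camp and by 1.42 for S100a9. On the FPKM scale S100a9 in LSK Bcor-/- replicate 2, at 1647 FPKM, was below the WT mean of 1757 FPKM. In limma 0 of these genes were called in LSK, with 0 at an unadjusted p below 0.05, and S100a8 alone was called in MEP. The difference between the cell types was not tested, since the tables were made separately. In LSK the WT mean includes replicate 2, whose values exceed those of Bcor-/- for all 3 genes.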

How the results depend on the processing

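The members called depended on the setting mainly in LSK. For double knockout against WT LSK, 5 were called, 3 without the trend, 2 with no filter, quantile normalization, median centring or the replicate block, 1 with only the compared genotypes or with the adjusted p, 0 with 1 variance per genotype, and 1 to 10 leaving out 1 library. For Bcor-/- against WT LSK, 0 were called, 1 with 1 variance per genotype, and 0 to 3 leaving out 1 library, with 2 called, both lower, without WT replicate 1 or Bcor-/- replicate 1. For Dnmt3a-/- against WT LSK, 4 were called, 0 with the adjusted p, and 2 to 8 leaving out 1 library. For double knockout against Bcor-/- LSK, 7 were called, 3 with the adjusted p, 1 with 1 variance per genotype, and 2 to 7 leaving out 1 library. Against Dnmt3a-/- LSK, 10 were called, 3 with 1 variance per genotype, and 8 to 10 leaving out 1 library. For Bcor-/- against WT MEP, 3 were called, 1 at a minimum of 5 FPKM or a fold above 2, 0 with the adjusted p, 2 with the replicate block, and 0 to 4 leaving out 1 library. Dnmt3a-/- against WT MEP kept 0 in all 21 settings. Apart from the adjusted p, the larger fold, the filters and the library left out, whose construction sets them, the cause was not tested.

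The gene lists were recomputed without WT LSK replicate 2, an alternative chosen after seeing the data. The counts that moved by more than 1.5 times were other late neutrophil genes called higher in the double knockout, from 8 to 13, transcription factors called higher there, from 1 to 2, and receptors and ligands called higher in Bcor-/-, from 1 to 3, while calls lower went from 1 to 0 for both the transcription factors and the metalloproteinases of Bcor-/- and from 2 to 1 for late neutrophil genes of Dnmt3a-/-.

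Of 1610 recomputed differences, 0 called ones changed sign. Among uncalled ones, 5 of Bcor-/- against WT LSK (Ltf, Ngp, Lcn2, Chil3, Cd177) turned positive without WT replicate 2. Signs also changed for S100a8 and Camp in double knockout against Bcor-/- LSK and for Ltf and Lcn2 in Bcor-/- against WT MEP. In Dnmt3a-/- against WT MEP they changed for S100a8, Ltf, Ngp, Lcn2, Mmp9 and Cd177, for Ltf in 5 of 21 settings. For MEP double knockout against WT, Chil3 ran from 3.84 to 6.66 when 1 double knockout library was left out. The median of all genes moved from 0.02 to -0.17 there under quantile normalization and to -0.14 under median centring, and to -0.12 for double knockout against Bcor-/- LSK under median centring.

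Genes called over the whole table moved by more than 1.5 times in some settings. With a fold above 2 they went from 3383 to 1973, 1581 to 516, 53 to 19, 3654 to 1952 and 3559 to 2084 in the 5 LSK comparisons in the order above, and from 302 to 118 and 45 to 14 in MEP. With the adjusted p, 690, 0, 7 and 0 remained for Bcor-/- and Dnmt3a-/- against WT in LSK and MEP. At a minimum of 5 FPKM, Dnmt3a-/- LSK gave 33, Bcor-/- MEP 166 and Dnmt3a-/- MEP 29. With only the compared genotypes Dnmt3a-/- gave 105 in LSK and 89 in MEP, and with 1 variance per genotype 121 and 78, with 482 for Bcor-/- MEP. A pseudocount of 0.1 gave 78 in Dnmt3a-/- MEP. Leaving out 1 library gave 885 at the lowest for Bcor-/- LSK, 35 to 113 for Dnmt3a-/- LSK, 199 at the lowest for Bcor-/- MEP and 34 to 121 for Dnmt3a-/- MEP. Libraries with the same replicate number in different genotypes share only the number: the correlations of their deviations were -0.06 to 0.09 in LSK and -0.19 to 0.34 in MEP, so the replicate block is not a pairing of mice.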
